A study of Homo sapiens with 22 samples.

Results

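The data are 4 H3K27ac peak lists from TC-32 cells, an established Ewing sarcoma line, 2 from cells given a control siRNA (siNEG) and 2 from cells given an siRNA against FLI1 (siFLI1). They were chosen by title and are 4 of the 22 samples of the series, of which 14 have a peak list. Both arms were reverse transfected with 20 nM siRNA, 1 siRNA per arm, and chromatin was immunoprecipitated with the same Active Motif H3K27ac antibody. A further H3K27ac library per arm, whose antibody label also names ab4729, was used as a check and entered no test. The labels give neither the time after transfection nor whether replicates were separate transfections, so p-values measure only the spread between these libraries. All values come from 1 bulk cell line, in which fewer marked cells and less acetylation per cell cannot be told apart. No transcript was measured here, so the depletion of FLI1 itself could not be checked.

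Ewing sarcoma is driven by a fusion of EWSR1 with an ETS factor, most often FLI1. The fusion protein keeps the DNA-binding domain of FLI1 and binds runs of GGAA, the core of the ETS motif, where it creates enhancers from repeats that are otherwise silent, and it also holds down a mesenchymal programme. H3K27ac, acetylation of lysine 27 of histone H3, marks active promoters and enhancers, so its peaks show where that activity is listed in each arm.

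A region below is an interval after the 4 lists were merged wherever peaks shared 1 bp. Gained regions are those found in each siFLI1 replicate and absent from each siNEG replicate, lost regions are the reverse, and shared regions are in all 4 lists. A promoter region is one whose centre lies within 1 kb of an annotated transcription start site (TSS), and other regions are called distal. Coordinates are on hg38 and count from 1.

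The following 5 sequences lie within 1 kb of the centre of lost distal regions near genes known to be activated by the fusion and show what such a repeat looks like. Capitals mark the unbroken run of GGAA units, which reads as TTCC where the repeat lies on the other strand.
NKX2-2 region, chr20:21576259-21576388, plus strand: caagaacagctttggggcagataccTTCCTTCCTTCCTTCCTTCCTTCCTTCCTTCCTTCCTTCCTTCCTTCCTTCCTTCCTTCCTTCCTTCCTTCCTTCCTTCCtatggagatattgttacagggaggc
PAX7 region, chr1:18611248-18611369, plus strand: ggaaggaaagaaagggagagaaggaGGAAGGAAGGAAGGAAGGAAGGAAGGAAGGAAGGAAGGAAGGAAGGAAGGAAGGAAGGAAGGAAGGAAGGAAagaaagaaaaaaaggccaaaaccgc
EZH2 region, chr7:148839031-148839132, plus strand: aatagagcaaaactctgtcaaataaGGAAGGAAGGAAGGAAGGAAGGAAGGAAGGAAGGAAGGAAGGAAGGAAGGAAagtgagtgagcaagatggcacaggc
CCK region, chr3:42266812-42266913, plus strand: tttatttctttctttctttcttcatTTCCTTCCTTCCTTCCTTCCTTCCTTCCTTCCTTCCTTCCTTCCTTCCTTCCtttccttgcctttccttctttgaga
FCGRT region, chr19:49511482-49511579, plus strand: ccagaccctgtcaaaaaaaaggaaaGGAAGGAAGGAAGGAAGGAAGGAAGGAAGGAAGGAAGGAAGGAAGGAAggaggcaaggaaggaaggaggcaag
The runs hold 20 units near NKX2-2, a homeobox repressor that the fusion needs, and 18 near PAX7, a paired-box factor of neural crest and muscle. There are 13 units near EZH2, the methyltransferase of Polycomb complex 2, 13 near CCK, the gene of the peptide cholecystokinin, and 12 near FCGRT, the neonatal Fc receptor. By their centres, the NKX2-2 lost region lies in an intron of the non-coding gene LINC01727 and those of EZH2 and FCGRT in introns of these genes. The lost regions of PAX7 and CCK lie between genes. The EZH2 run lies inside its lost region and the other 4 lie just outside theirs. The authors' fold of the lost region's peak was 12.3 and 11.3 at NKX2-2 and 7.64 and 4.72 at EZH2 in the siNEG lists, and no peak of either siFLI1 list overlapped the lost regions themselves.

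Gained regions are shown by 3 sequences from intronic regions at genes that gained the most regions. Each has the AP-1 motif TGANTCA, searched on both strands, in capitals. AP-1 is the FOS and JUN dimer, which binds enhancers of adhesion and matrix genes.
RAD51B region, chr14:68089287-68089373, plus strand: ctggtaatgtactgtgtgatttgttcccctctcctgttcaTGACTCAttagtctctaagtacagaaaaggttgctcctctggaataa
TNS3 region, chr7:47566574-47566660, plus strand: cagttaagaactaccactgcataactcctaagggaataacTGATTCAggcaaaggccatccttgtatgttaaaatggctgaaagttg
TLN2 region, chr15:62505907-62505986, plus strand: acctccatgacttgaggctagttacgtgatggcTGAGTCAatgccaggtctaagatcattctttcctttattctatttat
The motif lay 20 bp from the summit of the RAD51B region, 62 bp at TNS3 and 214 bp at TLN2. The authors' folds in the siFLI1 lists were 10.4 and 5.76 at RAD51B, 3.44 and 5.91 at TNS3 and 6.72 and 5.603 at TLN2. These 3 regions were in the ab4729 siFLI1 list and not in the ab4729 siNEG list, whereas the LAMB1 region chosen in the same way was in neither. The sequences were picked for the motif, whose share was no higher in gained distal regions (20.2%) than in shared ones (20.5%).

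The lists held 60027 and 60401 peaks in siNEG and 65501 and 61481 in siFLI1 cells and covered 63.0 and 58.6 Mb against 69.2 and 65.6 Mb. The sequencing depth of the libraries is unknown from these files. Of a list's peaks, 66.0% to 74.8% overlapped the other list of the same arm and 56.1% to 66.2% a list of the other arm. The cell type matched its label at all 5 Ewing sarcoma markers, since the promoters of CD99, NKX2-2, NR0B1, STEAP1 and PRKCB were in 4 of 4 lists. Of 10 promoters of genes of other cell types, 7 were in none of the 4 lists, namely PTPRC, CD3E, VWF, CDH5, MYOD1, DES and KRT5. EPCAM was in 4 lists and PECAM1 in 3.

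Of 90572 merged regions, 7415 (8.19%) were gained, 4403 (4.86%) were lost and 22724 were shared. Gained and lost regions were of similar width, with medians of 726 and 716 bp, and both were narrower than shared regions at 2195 bp. Promoters made up 19.5% of the gained, 10.6% of the lost and 40.7% of the shared regions. Lost regions lay more often between genes, at 28.3% against 22.1% of gained regions, and their median GC content was 44% against 46.4%. Within a single list the promoter share was 28.7% and 28.4% in siNEG and 28.6% and 29.3% in siFLI1, and these values overlapped (exact permutation test, two-sided p = 0.67). Per chromosome, gained regions took 6.06% (chromosome 19) to 9.31% (chromosome 6) of all regions and lost regions 2.95% (chromosome 19) to 8.72% (chromosome 13). Chromosome 13 was the only one with more lost than gained regions, 133 against 118.

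The calls depend on how many lists must hold a region. With the ab4729 pair added, so that 3 lists had to hold a region and 3 to lack it, 2324 regions were gained and 541 lost. Leaving out a list asks for presence in 1 list of that arm in place of both. Dropping siFLI1 replicate 1 gave 18874 gained regions, and dropping replicate 2 gave 21850. Dropping siNEG replicate 1 gave 16278 lost and 10843 gained regions, and dropping replicate 2 gave 16328 lost and 9568 gained regions. Lost regions then outnumbered gained ones over the genome, and net counts with a list left out, given below, carry this shift.

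The ab4729 pair, 1 library per arm and hence without a test, held 32738 peaks in siNEG and 51663 in siFLI1, and the longer list was cut to the number of the shorter by taking its strongest peaks. Of the gained regions, 20.6% were in the siFLI1 and 2.81% in the siNEG list. Of the lost regions, 16.2% were in the siNEG and 2.88% in the siFLI1 list, whereas shared regions were held to a similar extent, 61.7% in siNEG and 63.5% in siFLI1. The difference was present for lost regions with a GGAA run of at least 4 units within 1 kb, at 25.1% in siNEG and 0.404% in siFLI1, and for those without one, at 15.1% and 3.20%. At lost promoters the shares were 17.3% in siNEG and 7.07% in siFLI1, and at lost distal regions 16.1% and 2.39%. Shared regions beside a run were also listed more often in siNEG, 75.3% against 49.2%. Most gained and lost regions were in neither ab4729 list.

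**Figure D1:**
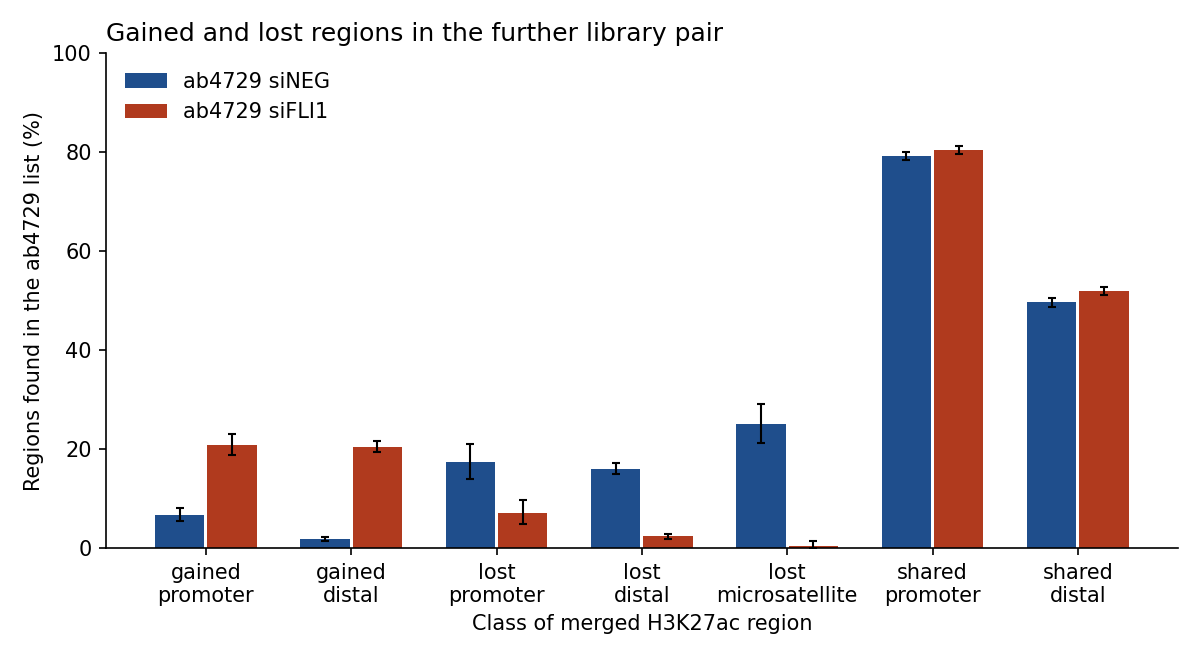
Share of gained, lost and shared regions that overlap a peak of the ab4729 siNEG (blue) or siFLI1 (red) list, compared at equal length, with exact 95% binomial intervals that cover counting error over regions only. Gained regions are more often in the siFLI1 list (20.6% against 2.81%), lost regions in the siNEG list (16.2% against 2.88%), and shared regions lie close together.

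GGAA microsatellites carried less listed H3K27ac after FLI1 knockdown, and the gap widened with the length of the run. Of the 3231 genomic runs of at least 10 units, 26.8% and 25.04% had a peak within 1 kb in the siNEG lists and 15.3% and 15.3% in the siFLI1 lists. The arms did not overlap, and the exact permutation test gave a two-sided p = 0.33, the smallest that 2 lists against 2 allow. In the ab4729 pair the shares were 15.5% in siNEG and 9.69% in siFLI1, although the siFLI1 list was the longer one. Both siNEG and neither siFLI1 list had a peak at 248 of these runs, and the opposite held at 5.

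The 7278 runs of 4 to 5 units had peaks at 5.41% and 4.99% of loci in siNEG and 4.92% and 4.92% in siFLI1, a difference of 0.28 percentage points. At 6 to 9 units the shares were 13.1% and 12.5% against 8.47% and 8.35%, and at 10 to 14 units 24.2% and 22.4% against 13.8% and 13.8%. At 15 to 19 units they were 34.9% and 33.8% against 20.4% and 20.2%. Only 25 runs had 20 or more units, of which 11 and 8 had a peak in siNEG and 4 and 5 in siFLI1. Acetylated repeats thus made up 2.496% and 2.31% of siNEG peaks and 1.48% and 1.56% of siFLI1 peaks, which put siFLI1 at -0.88 percentage points on average (p = 0.33 in the same exact test). Leaving out each list in turn kept this difference between -0.98 and -0.79.

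**Figure D2:**
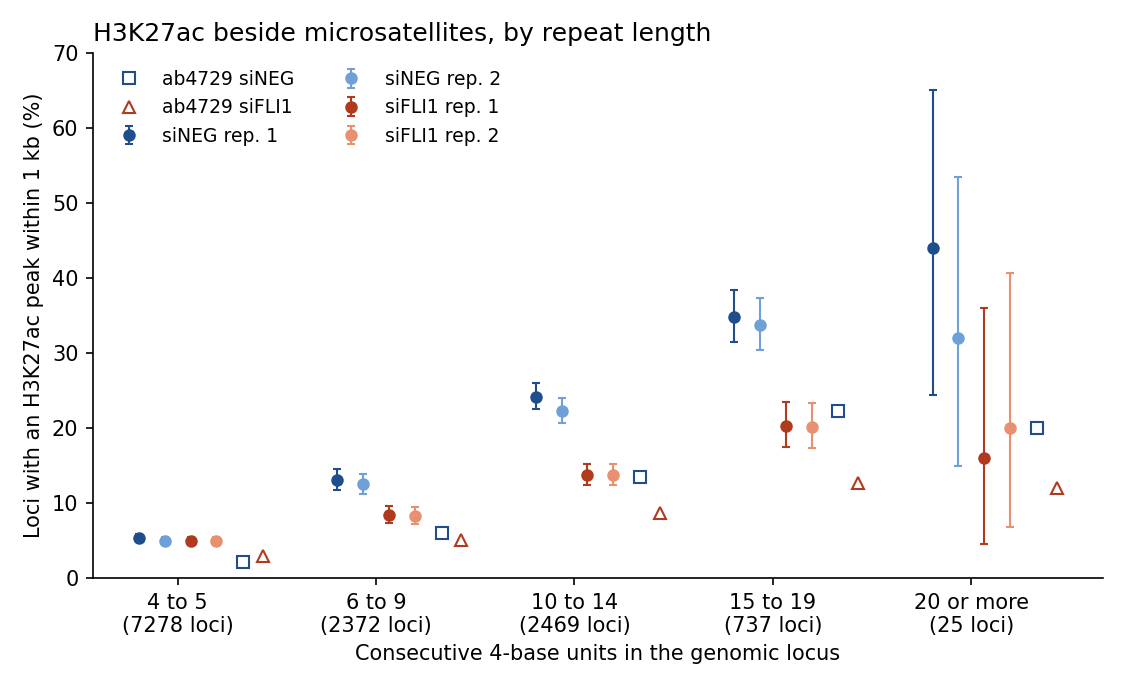
Share of genomic GGAA microsatellites with an H3K27ac peak within 1 kb (vertical axis, %) by number of units (horizontal axis), for each list, with exact 95% binomial intervals over loci on the replicated lists. The replicated siNEG lists (blue dots) lie above the replicated siFLI1 lists (red dots) in every class, least at 4 to 5 units and further apart in longer ones, for example 34.9% and 33.8% against 20.4% and 20.2% at 15 to 19 units. The unreplicated ab4729 lists (open symbols) have the opposite order at 4 to 5 units, with 2.13% in siNEG and 3.01% in siFLI1.

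Read from the merged regions, 4.28% of those with 0 to 1 GGAA units within 1 kb of their centre were lost. The share was 12.1% at 4 to 5 units, 30.0% at 6 to 9, 37.4% at 10 to 14 and 39.3% at 15 to 19 units. Gained regions went the other way, from 8.37% at 0 to 1 units to 0.501% at 10 to 14 units. In all, 495 lost regions had a run of at least 4 units, with a median of 12 units, against 46 gained regions with a median of 4. Ranked by the lower of its 2 fold percentiles within the siNEG lists, the first lost distal region with a run lay 47757 bp from the TSS of CCNA1, the germ cell cyclin A1, with folds of 19.2 and 15.6 beside a run of 17 units. The NKX2-2 region came next, and then one at ROBO1, an axon guidance receptor, with 13.2 and 9.49 beside a run of 12 units. All 3 were in the ab4729 siNEG list and not in its siFLI1 partner.

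Genes known to be activated by the fusion lost regions more often than they gained them. Regions were assigned to the nearest protein-coding TSS within 100 kb, which gave 13306 genes a region. Of these, 3170 (23.8%) gained more regions than they lost and 1702 (12.8%) lost more than they gained. Of 27 fusion-activated genes, 23 had a region, 14 were net lost and 2 net gained. Their 329 regions comprised 36 lost and 9 gained ones, or 10.9% and 2.74%, against 4.37% and 7.83% over the regions of all genes, and their median net count was -1 against 0. Of the 36 lost regions 6 had a GGAA run within 1 kb, against 325 of the 3610 lost regions of all genes. H3K27ac at these genes covered 457 and 436 kb in siNEG and 386 and 354 kb in siFLI1 cells. Over all genes the covered length went the other way, with 56869 and 53249 kb in siNEG and 63487 and 60009 kb in siFLI1. The net count of -27 regions was 2 without siFLI1 replicate 2 and 1 with the ab4729 pair added.

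PRKCB, the gene of protein kinase C beta, lost 10 regions and gained 2 of 92, and its covered length was 105 and 104 kb in siNEG and 89.3 and 81.3 kb in siFLI1. Its net count of -8 was 1 with the ab4729 pair added. CCND1, which encodes cyclin D1, lost 3 regions 12696 to 41082 bp from its TSS and was covered over 31.2 and 39.7 kb in siNEG and 25.4 and 21.9 kb in siFLI1. FCGRT lost 3 regions in its first introns, with 5.43 and 6.81 kb against 3.34 and 2.79 kb. CCK lost 3 of its 4 regions, including its promoter, whose folds were 4.51 and 2.71 in siNEG. No siFLI1 peak was assigned to CCK, and neither ab4729 list had one, so that pair gives no value for this gene. At BCL11B, a zinc finger repressor, 4 regions were lost and 1 gained, with 71.4 and 67.4 kb against 67.1 and 59.6 kb. JARID2, a Polycomb partner, went against the list with 4 gained and 1 lost regions and 9.82 and 5.61 kb in siNEG against 15.5 and 12.3 kb in siFLI1.

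NKX2-2 kept acetylation at its promoter in all 6 lists and lost 2 upstream regions. Its covered length was 39.1 and 39.6 kb in siNEG and 27.5 and 27.7 kb in siFLI1, with no overlap between the arms. The farther lost region, chr20:21576427-21578054, lies on the far side of the run of 20 units printed above. Next to the run on the side nearer to the gene, the siNEG peaks had folds of 11.6 and 6.29. Each siFLI1 list had a weaker peak overlapping them, with folds of 3.74 in replicate 1, farther from the run, and 4.43 in replicate 2. The ab4729 siNEG list also had peaks there, with folds of 6.83 and 5.85, and its siFLI1 partner had none. By presence in the 4 lists, the loss thus covers 1 flank of the repeat. The nearer lost region, chr20:21561542-21562995, had folds of 4.88 and 3.76 in siNEG and overlapped H3K4me3 peaks in both siNEG and neither siFLI1 list. Among the other Ewing markers, NR0B1, an orphan nuclear receptor, covered 13.1 and 13.0 kb against 11.3 and 11.4 kb, and STEAP1, a metalloreductase, 0.962 and 0.598 kb against 0.446 and 0.324 kb. CD99, the surface glycoprotein used in diagnosis, covered 36.1 and 36.7 kb in siNEG and 36.0 and 31.7 kb in siFLI1, with all lists above 31 kb. No peak of the ab4729 pair was assigned to CD99.

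**Figure D3:**
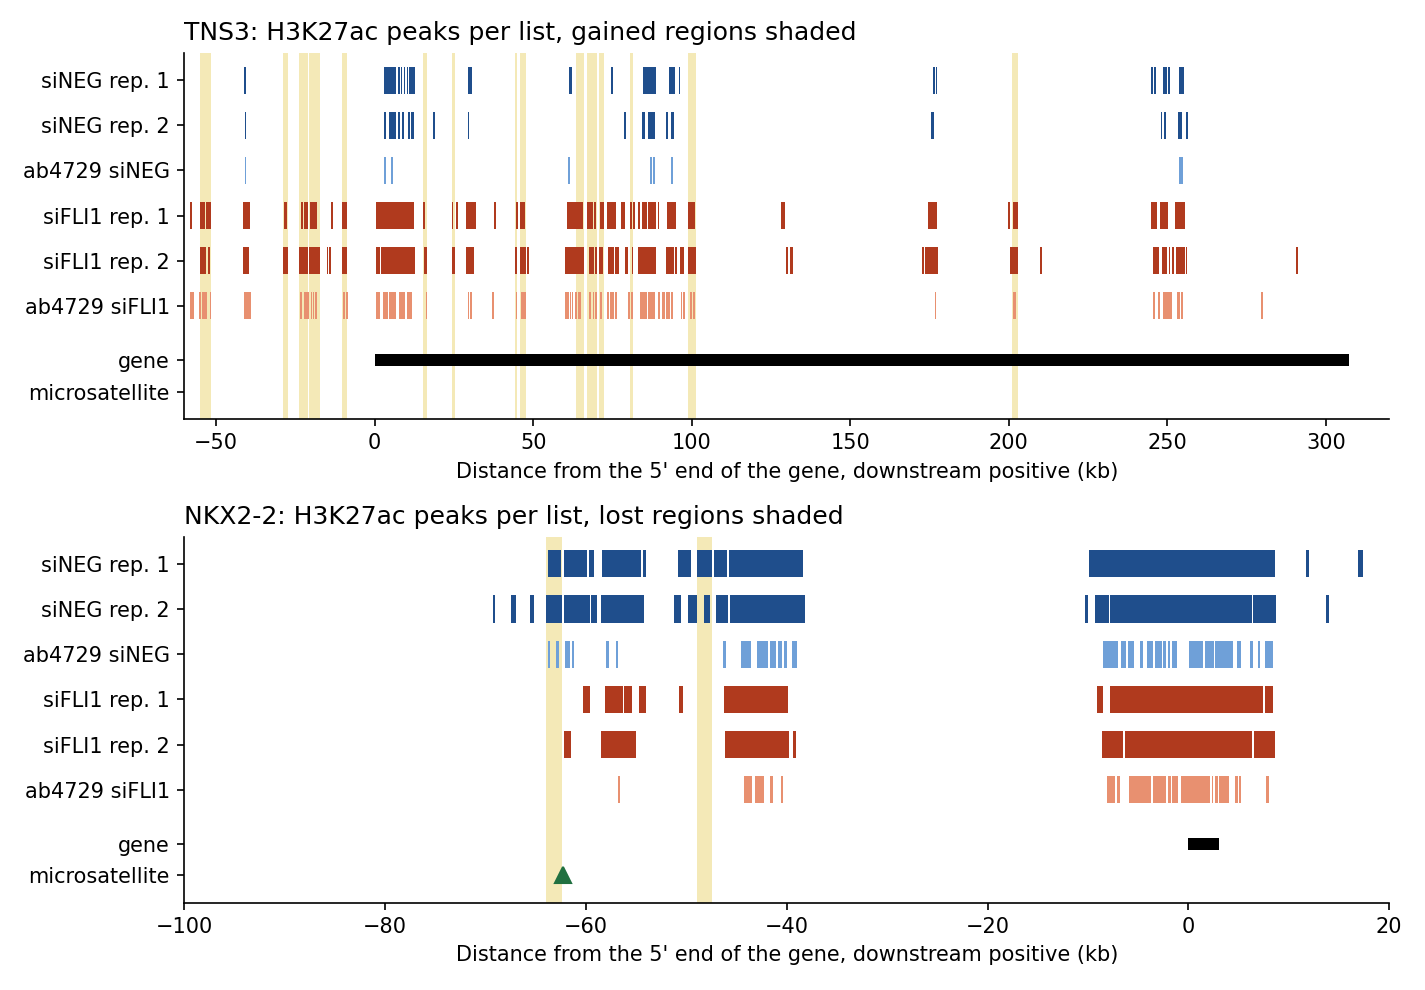
H3K27ac peaks of each list (rows) around TNS3 and NKX2-2, by distance from the 5′ end of the gene (horizontal axis, kb, downstream positive), with gained regions at TNS3 and lost regions at NKX2-2 shaded and the microsatellite of 20 units marked by a triangle. At TNS3 the siFLI1 lists hold 49 and 53 peaks against 27 and 22 in siNEG. At NKX2-2 the shaded region on the far side of the microsatellite has peaks in the siNEG lists and in no siFLI1 list. On the near side of the microsatellite each replicated siFLI1 list has a peak that overlaps siNEG peaks.

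Lost regions without a GGAA run within 1 kb were the large majority, 3908 of 4403 (88.8%). They lay nearer to long runs than other regions did. Within 10 kb of a run of at least 10 units were 9.16% of them, against 3.26% of shared and 1.60% of gained regions without a run of their own. Within 100 kb the shares were 35.4%, 23.9% and 17.9%. Lost regions have fewer promoters and a lower GC content than shared ones, and the part of this in the difference was not tested.

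The genes with the most net lost regions lost mostly sites without GGAA runs. KIAA1217 lost 12 of 143 regions, none beside a run, with 178 and 185 kb covered in siNEG and 140 and 142 kb in siFLI1. OPCML, a neural cell adhesion protein, lost 11 of 49, with 63.4 and 64.5 kb against 30.3 and 29.9 kb. SYNPR, the synaptic vesicle protein synaptoporin, lost 10 of 41, of which 2 lay beside a run, with 33.2 and 29.4 kb against 14.2 and 13.2 kb. BASP1, a growth cone protein, also lost 10, of 79, with 61.3 and 60.01 kb against 39.4 and 36.9 kb, though its net count of -10 was 0 with the ab4729 pair added. GLG1, a Golgi glycoprotein, lost 10 of 60, with 41.6 and 45.6 kb against 21.3 and 15.8 kb.

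The steepest drop in covered length among these 10 genes was at MACROH2A2, which encodes the histone variant macroH2A2. It lost 7 of 23 regions and covered 17.5 and 18.1 kb in siNEG and 3.76 and 4.01 kb in siFLI1. One of them, chr10:70041619-70044401, 9534 bp from the TSS, had the highest fold percentile of all lost distal regions, with folds of 21.9 and 15.1, and was in the ab4729 siNEG list alone. MAGI1, a scaffold of cell junctions, and TRMT9B, a tRNA methyltransferase-like protein, lost 8 regions each, as did CECR2, a bromodomain protein of chromatin remodelling complexes. CECR2 covered 23.3 and 17.6 kb against 9.54 and 7.57 kb. None of these 10 genes other than PRKCB gained a region, and in each the 4 covered lengths were separated by arm. With the ab4729 pair added, the net counts were nearer to 0, at -5 for OPCML, -4 for TRMT9B, -3 for KIAA1217, GLG1 and MACROH2A2, and -1 for SYNPR, MAGI1 and CECR2. Without siFLI1 replicate 2 they were -4 for KIAA1217, -3 for BASP1 and -5 for MAGI1 and PRKCB. At the stricter q limit they were -4 for KIAA1217, MAGI1 and MACROH2A2, -5 for SYNPR and PRKCB and -6 for BASP1. With assignment within 50 kb they were -4 for TRMT9B and -2 for MAGI1, and by gene body and 10 kb -2 for TRMT9B and -3 for MACROH2A2.

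Of 20 neural genes with a region, 8 were net lost (40% against 12.8% of all genes) and 5 net gained (25% against 23.8%). Their 188 regions comprised 18 lost (9.57% against 4.37%) and 11 gained (5.85% against 7.83%), and their median net count was 0, as over all genes. The covered length was 178 and 164 kb in siNEG and 128 and 121 kb in siFLI1. ROBO1 lost 3 regions and covered 11.9 and 10.9 kb against 4.93 and 2.86 kb. NCAM1, the neural cell adhesion molecule, lost 5 and gained 3, with 23.5 and 19.7 kb against 14.9 and 15.6 kb. NTRK2, the receptor of the neurotrophin BDNF, and POU3F1, a POU factor, each had a net loss of 2. MAP2, a dendritic microtubule protein, gained 2 regions and lost none. The net count of -7 was 2 without siFLI1 replicate 2.

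The genes with the most net gained regions include several of the cytoskeleton and the matrix. RAD51B, a recombination protein whose long introns lie beside ACTN1 and ZFP36L1, gained 19 of 50 regions and lost none. H3K27ac covered 21.1 and 20.1 kb there in siNEG and 61.8 and 58.9 kb in siFLI1. The 1 Mb window that starts at chromosome 14 position 68000001 held 25 gained and 0 lost regions, the most net gained of all such windows. TNS3, which encodes tensin 3, a link between integrins and actin, gained 18 of 61 regions, with 20.1 and 14.2 kb against 69.2 and 75.3 kb. At both genes every siFLI1 value was above every siNEG value.

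The TNS3 gains reached from more than 50 kb before the gene to an internal promoter 201 kb inside it. That promoter region, chr7:47379553-47381517, had the highest fold percentile of all gained promoters, with folds of 14.6 and 14.4. A region before the gene, chr7:47603622-47606441, had 14.4 and 13.4. The ab4729 lists had 9 peaks at TNS3 in siNEG and 76 in siFLI1. Leaving out each list in turn and the other alternatives kept its net count between 12 and 40.

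The other 8 genes with the most net gained regions gained 10 to 15 each and lost none. NXN, the redox protein nucleoredoxin, gained 15, with 22 and 23.6 kb against 65.0 and 57.0 kb, and AOPEP, an aminopeptidase, also 15, with 43.01 and 42.7 kb against 96.9 and 96.3 kb. CDC42EP3, an effector of the GTPase CDC42, gained 13 and TLN2, the integrin activator talin 2, gained 12. SHROOM3, which drives apical constriction through actomyosin, gained 12, with 12.8 and 10.7 kb against 32.0 and 32.0 kb. FILIP1L, a filamin A partner, gained 11, with 4.74 and 3.96 kb against 20.5 and 20.1 kb, and had 0 peaks in the ab4729 siNEG list and 28 in the siFLI1 list. With the ab4729 pair added, the net counts of NXN, AOPEP and CDC42EP3 were 7, 4 and 5, that of FILIP1L was 7 and that of RAD51B was 10. With assignment within 50 kb they were 10 for RAD51B, 7 for CDC42EP3 and 6 for FILIP1L. CDC42EP3 had 8 at the stricter q limit and 2 when regions were assigned by gene body and 10 kb to each side. The matrix genes LAMB1, for laminin beta 1, and FN1, for fibronectin, gained 11 and 10. Their net counts were 1 each with the ab4729 pair added, and the uncut ab4729 lists had 5 peaks in siNEG and 23 in siFLI1 at LAMB1. At FN1 they had 7 and 10, a smaller ratio than that of the lists' lengths, 32738 and 51663, which these counts do not correct for.

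**Figure D4:**
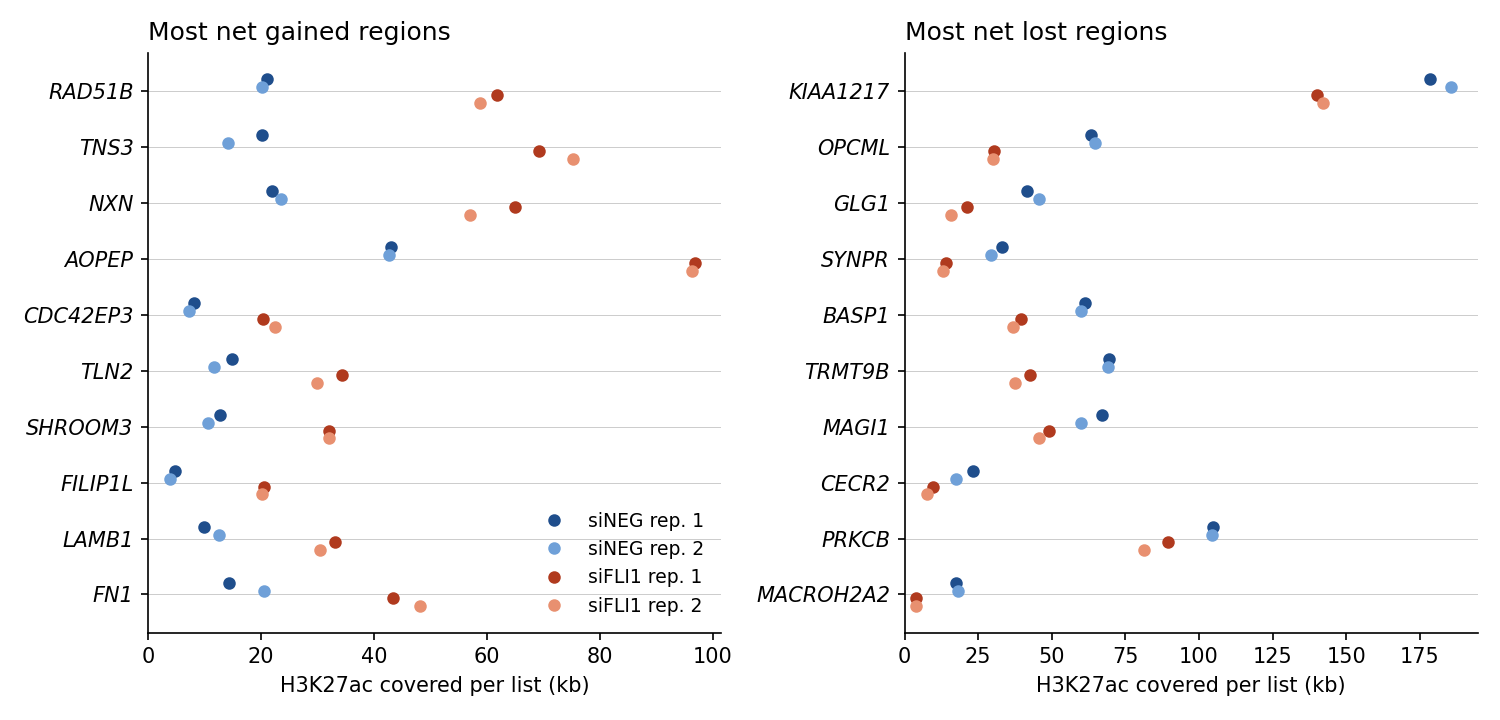
Length covered by H3K27ac peaks assigned to each gene (horizontal axis, kb) in each of the 4 lists, for the 10 genes with the most net gained and the 10 with the most net lost regions. The genes were chosen for this pattern, and in all 20 the siNEG (blue) and siFLI1 (red) points do not overlap.

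Extracellular matrix genes had the highest share of gained regions of the 16 gene lists. Of 30 genes, 22 had a region, and 13 of these (59.1% against 23.8% of all genes) were net gained and 2 (9.09% against 12.8%) net lost, with a median net count of 2 against 0 over all genes with a region. Of their 301 regions, 65 (21.6%) were gained and 6 (1.99%) lost, and the covered length was 178 and 172 kb in siNEG and 311 and 311 kb in siFLI1. COL5A1, which encodes a chain of type V collagen, gained 7 regions and lost none, with 5.84 and 6.38 kb against 18.6 and 19.1 kb. COL4A2, a basement membrane collagen, gained 6, with 3.50 and 1.42 kb against 12.1 and 11.9 kb, and FBN1, for fibrillin 1, gained 6, with 6.36 and 4.66 kb against 10.7 and 11.4 kb. COL6A3, a chain of type VI collagen, had no siNEG peak and covered 6.33 and 4.81 kb in siFLI1, with 4 gained regions of 6. The ab4729 lists had 0 and 10 peaks there.

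Genes of focal adhesions and the actin cytoskeleton were next. Of 34 genes with a region, 20 (58.8% against 23.8% of all genes) were net gained and 5 (14.7% against 12.8%) net lost, with 88 (15.4%) gained and 18 (3.15%) lost of 571 regions. Their median net count was 1, and their covered length was 473 and 462 kb in siNEG and 654 and 631 kb in siFLI1. TNS3 and TLN2 belong to this list and contributed 18 and 12 of the 88 gained regions. PARVA, for parvin alpha of the integrin-linked kinase complex, gained 5 regions, with 7.17 and 7.55 kb against 15.2 and 16.1 kb. VCL, which encodes vinculin, gained 4, with 38.5 and 39.5 kb against 52.0 and 48.1 kb. Not every member went this way. ITGB5, for integrin beta 5, lost 5 and gained 3, with 45.4 and 47.9 kb against 34.2 and 28.4 kb, and PXN, for paxillin, lost 2, with 53.1 and 52.6 kb against 44.2 and 43.2 kb. The net counts of the matrix and adhesion lists kept their sign in all 9 alternatives, at 29 to 134 and 35 to 173 regions.

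TGF-beta and YAP/TEAD genes were covered over a longer stretch in siFLI1 cells, while their share of gained regions was close to that of all genes and their share of lost regions was lower. Of 22 TGF-beta genes, 9 (40.9% against 23.8% of all genes) were net gained and 4 (18.2% against 12.8%) net lost, and 8.81% of their regions were gained and 2.27% lost, against 7.83% and 4.37% over all genes. The covered length was 302 and 304 kb in siNEG and 435 and 411 kb in siFLI1, a ratio of 1.40 against 1.27 for ribosomal protein genes. For all peaks of the lists this ratio was 1.11. SMAD3, the transcription factor that receptors of TGF-beta activate, gained 8 regions, with 48.9 and 51.5 kb against 79.8 and 76.2 kb. TGFB2, a ligand, gained 6, with 24.2 and 21.5 kb against 58.0 and 54.4 kb. TGFBR2, the type II receptor, lost 2 and gained none, and its covered length was 7.57 and 6.09 kb against 8.73 and 8.26 kb. The net count of this list, 23, was -10 without siNEG replicate 1. Of 18 YAP/TEAD genes, 9 (50%) were net gained and 2 (11.1%) net lost, with 248 and 239 kb covered in siNEG and 335 and 311 kb in siFLI1, a ratio of 1.32. Of their regions 9.57% were gained and 2.13% lost. Their net count of 21 was 3 without siNEG replicate 1 and 0 without siNEG replicate 2. AMOTL1, an angiomotin that binds YAP, gained 6 and lost 1, with 15.2 and 12.5 kb against 31.4 and 30.6 kb.

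Of 23 genes known to be repressed by the fusion, 21 had a region, 10 were net gained and 3 net lost, with 27 (11.3%) gained and 10 (4.20%) lost of 238 regions. Over all genes 23.8% were net gained, and 7.83% of regions were gained and 4.37% lost. The net count of 17 was 2 without siNEG replicate 1 and 0 without siNEG replicate 2. Their covered length was 264 and 237 kb in siNEG and 319 and 299 kb in siFLI1, while the number of peaks overlapped between the arms. PHLDA1, a regulator of growth factor signalling, gained 5 regions, including a promoter region with folds of 13.0 and 13.1, and covered 9.17 and 6.29 kb against 13.5 and 15.03 kb. IGFBP5, a binding protein of insulin-like growth factors, covered 8.76 and 7.504 kb against 26.2 and 27.5 kb with 3 gained regions. CCN1, a matricellular target of YAP, covered 11.1 and 8.99 kb against 17.03 and 16.7 kb.

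**Figure D5:**
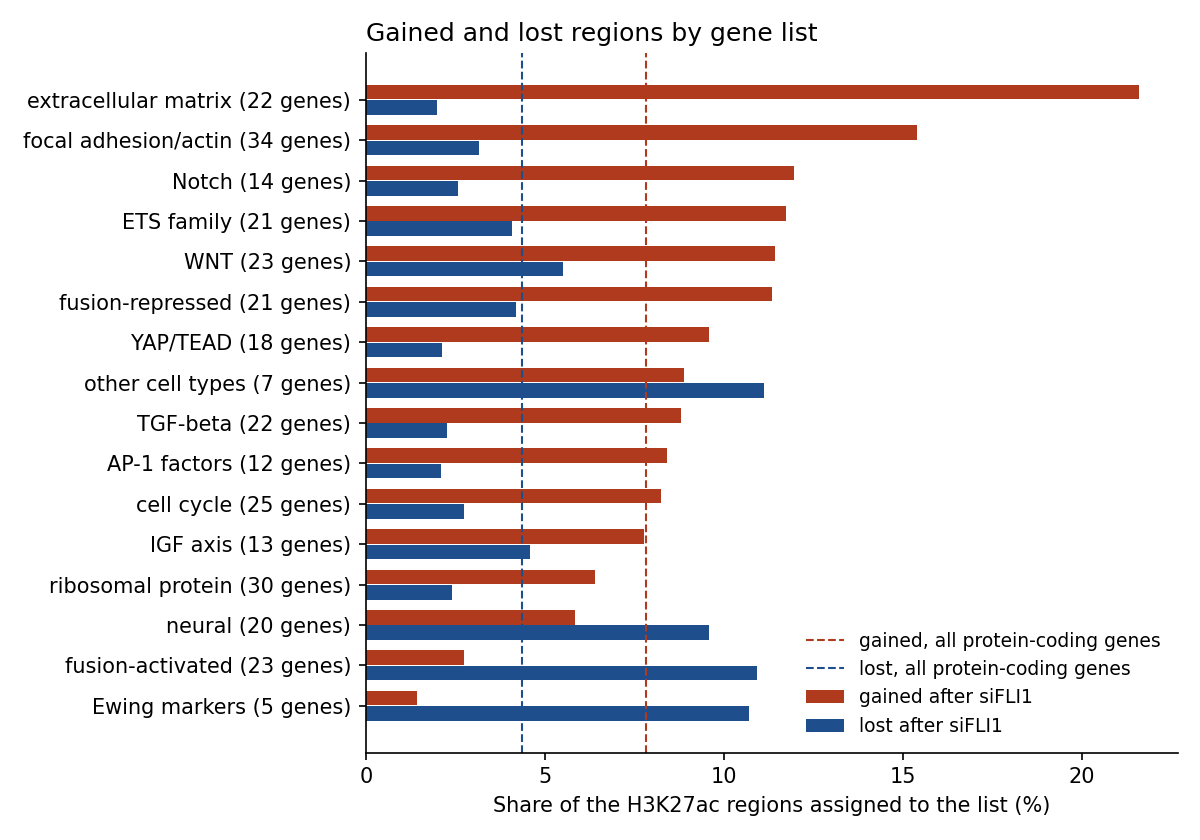
Gained (red) and lost (blue) regions as a share of all H3K27ac regions assigned to the genes of each list (horizontal axis, %), with dashed lines at the shares over all protein-coding genes (7.83% gained, 4.37% lost). Extracellular matrix (21.6%) and focal adhesion (15.4%) genes lie highest in gained regions, and genes of other cell types (11.1%, 5 of 45 regions), fusion-activated genes (10.9%), Ewing markers (10.7%) and neural genes (9.57%) lie highest in lost regions. Of the 5 Ewing markers 4 are also in the fusion-activated list, and PRKCB holds 10 of their 15 lost regions.

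ETS1, an ETS factor with a role in migration, had no peak in either siNEG list. In siFLI1 its peaks covered 8.33 and 6.74 kb, and all 4 of its regions were gained. They include the promoter region chr11:128521621-128523370, with folds of 9.42 and 6.41, and the intronic region chr11:128506407-128508222, with 12.3 and 9.89. The ab4729 lists had 0 peaks at the gene in siNEG and 4 in siFLI1, of which none overlapped the intronic region. FLI1, the adjacent ETS gene, gained 2 regions in introns and covered 2.168 and 1.63 kb against 3.27 and 3.54 kb. Of 21 ETS family genes with a region, 7 (33.3% against 23.8% of all genes) were net gained and 2 (9.52% against 12.8%) net lost, and 11.7% of their regions were gained and 4.08% lost, against 7.83% and 4.37%. Their covered length overlapped between the arms, at 153 and 134 kb in siNEG and 146 and 141 kb in siFLI1. EHF and ELF3, both epithelial ETS factors, gained 4 and 3 regions, and ELF2 lost 3, with 29.3 and 25.2 kb against 12.35 and 14.1 kb. The net count of the family, 15, was -6 without siNEG replicate 1 and -12 without siNEG replicate 2.

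The other pathway lists were mixed beside the 23.8% of all genes that were net gained and the 12.8% net lost. In the WNT list 8 of 23 genes (34.8%) were net gained and 6 (26.1%) net lost, with 7 regions gained at TCF7L1 and 5 at TCF7L2, both transcription factors of the pathway, and 3 lost at the receptor gene FZD1. In the Notch list 6 of 14 (42.9%) were net gained and 1 (7.14%) net lost. NOTCH1 gained 5 regions, with 10.8 and 13.0 kb against 20.3 and 22.5 kb, and the target gene HES1 lost 2, with 25.2 and 24.4 kb against 16.9 and 18.5 kb. In the IGF list 6 of 13 (46.2%) were net gained and 2 (15.4%) net lost. IGF1R, the receptor, had 7 gained and 3 lost of 93 regions, and PAPPA, a protease that frees IGF from binding proteins, lost 6 and gained 2, with 29.3 and 25.3 kb against 18.9 and 17.6 kb. Net counts of these 3 lists changed sign when a siNEG list was left out, as did the net count of all merged regions. Without siNEG replicate 1 they were -7 for WNT, -4 for Notch and -21 for IGF, and without siNEG replicate 2 they were -10 for WNT and -14 for IGF.

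Of 30 ribosomal protein genes, 3 (10% against 23.8% of all genes) were net gained and 2 (6.67% against 12.8%) net lost, although they were covered over 131 and 111 kb in siNEG and 153 and 156 kb in siFLI1. Of 25 cell cycle genes, 8 (32%) were net gained and 3 (12%) net lost. CDK1, the mitotic kinase, gained 3 regions, with 3.02 and 2.33 kb against 10.1 and 9.34 kb. The cell cycle net count of 10 was -15 without siNEG replicate 1 and -8 without siNEG replicate 2, and the ribosomal count of 5 was -8 without siNEG replicate 2. Of 12 AP-1 factor genes, 3 (25%) were net gained and none net lost. Of 7 genes of other cell types with a region, 3 were net gained and 3 net lost, and their net count of -1 was 3 without siFLI1 replicate 1 and 4 without siFLI1 replicate 2. PECAM1, the endothelial adhesion molecule, lost 3 regions, with 12.7 and 12.2 kb against 2.68 and 3.38 kb.

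H3K4me3, the methylation of active promoters, was measured in the same arms. Of 1447 gained promoter regions, 38.4% and 39.2% overlapped an H3K4me3 peak in the siNEG lists and 39.0% and 39.6% in the siFLI1 lists. Over all promoter regions the shares were 56.7% and 57.2% in siNEG and 56.1% and 56.3% in siFLI1. A gained H3K27ac region reached within 1 kb of a TSS of 1205 protein-coding genes and a gained H3K4me3 region of 289, and 12 genes had both. For scale, 13306 protein-coding genes had an assigned H3K27ac region. The overlap was not tested, and the number that unrelated lists of these sizes would share was not computed, so the 12 genes are a description. By fold these were led by COL5A3, a type V collagen chain, KRT15, an epithelial keratin, RIMKLB, TAGLN and LMOD1. TAGLN, the smooth muscle actin-binding protein transgelin, had folds of 6.14 and 8.27, and LMOD1, the smooth muscle actin nucleator leiomodin, 12.7 and 6.28. CCDC80, FHL1, PLAT, PKD2L2 and L1CAM followed. Both marks were lost in this sense at 4 genes, NEUROD6, PLCD1, PADI2 and ENSG00000255508. A lost H3K27ac region lay there at 409 genes and a lost H3K4me3 region at 181. NEUROD6, a neuronal basic helix-loop-helix factor, had folds of 8.62 and 7.19 in siNEG.

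After TNS3, the gained promoters with the highest fold percentiles were those of SPRY2, a feedback inhibitor of receptor tyrosine kinases, with 13.1 and 13.5, PHLDA1 and JPH2, a junctophilin, with 23.2 and 12.6. The SPRY2 and PHLDA1 promoters had H3K4me3 in both arms, and those of TNS3 and JPH2 in neither. Among gained distal regions the highest lay in an intron 77240 bp from the TSS of NPAS2, a circadian factor, with 21.4 and 22.3, and 2947 bp from that of PRR5, a subunit of mTOR complex 2, with 20.1 and 16.4. Both were in the ab4729 siFLI1 list alone. Lost promoters were led by TEDC1, RAB8A and GGACT, all with H3K4me3 in both arms, and those of TEDC1 and GGACT were in both ab4729 lists.

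Motifs were searched on both strands within 250 bp of the summit of distal regions. The E-box CAGCTG, bound by basic helix-loop-helix factors, was in 27.2% of gained, 20.4% of lost, 24.5% of shared and 22.9% of all distal regions. Per list it was in 22.4% and 22.5% of distal peaks in siNEG and 24.02% and 24.2% in siFLI1, which do not overlap and differ by 1.64 percentage points on average (p = 0.33, exact permutation test). The TEAD motif GGAATG was in 31.0% of gained, 25.3% of lost, 27.1% of shared and 26.96% of all distal regions. Per list it was in 26.9% and 26.7% against 27.7% and 27.4% (exact permutation test, two-sided p = 0.33). AP-1 was in 20.2% of gained, 18.1% of lost, 20.5% of shared and 18.1% of all distal regions. Its share per list overlapped between the arms, at 18.8% and 18.1% in siNEG and 18.7% and 18.8% in siFLI1 (exact permutation test, two-sided p = 0.67). The mean AP-1 difference, 0.29 percentage points, was -0.57 within 100 bp of the summit and -0.08 without siNEG replicate 2. In all, 12 motifs were compared in this way, the arms did not overlap for 8 of them, and no p can pass a threshold with this number of lists. A match describes the sequence and does not show binding.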

How the data were processed

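The authors' deposited files are narrowPeak lists called for each library. The submitters' processing notes name cutadapt 4.4, BWA 0.7.17, Picard 2.17.11, MACS2 2.1.1 and the builds GRCh38, hg38 and dm6. Their options, the control libraries and the use of dm6 are not given in the sources used here. The deposited fold column is the authors' enrichment ratio per peak and was used to describe and rank peaks within a list. The deposited −log10 columns are the authors' p-value and q-value, which served for equal-length and stricter lists, and the deposited score column was not used further. A peak's presence depends on depth and on the caller's limit, so a list shows detection and not how much of the mark a site holds.

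Lists were merged at 1 bp over chromosomes 1 to 22 and X with Python 3.11.15, numpy 2.4.6 and pandas 2.3.3. TSSs and introns came from GENCODE release 44, and sequences from the hg38 genome read with pysam 0.24.0. Arms were compared by exact two-sided permutation tests of 1 value per list. The functions for merging, classes, runs and tests were tested on simulated data. Named genes were, by rule, those with the largest net counts overall and per list, the regions with the highest fold percentile per class, promoters with both marks, the marker genes, ETS1 and FLI1. The gene lists were written from general knowledge, and they, the rules and the motifs were chosen with earlier results of these data known. One marker gene is not reported here.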

Additional observations from a re-analysis of the deposited data

How the results depend on the processing

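In all, 49 results were recomputed under alternatives, which gave 407 values. Of these 240 counted as the same, 147 moved and 20 changed sign. For counts the same means close to the reported value, but for differences per list only that the sign was kept. The promoter share difference of 0.41 percentage points thus counted as the same at 0.02 without siFLI1 replicate 2. The alternatives for the E-box, TEAD, RUNX and SP/KLF motifs, for the genomic microsatellites and for lost regions in the ab4729 pair were added after seeing the data, as were the stricter q limit, the ab4729 pair and left-out lists for net counts. With the ab4729 pair added, 2324 regions were gained and 541 lost. Leaving out each list in turn gave 9568 to 21850 gained and 6121 to 16328 lost regions, since presence in 1 list then suffices where the list left out is of the arm that holds the region, and absence from 1 list where it is of the other arm. Of the regions in exactly 1 ab4729 list, 97.3% of the gained ones lay in the siFLI1 list and 75.3% of the lost ones in the siNEG list, and at equal list length these shares were 93.6% and 92.1%. The AP-1 difference of 0.29 percentage points was -0.57 within 100 bp of the summit, and -0.0786 to 0.658 with each list left out. The E-box and GGAA differences kept their sign under every alternative run.

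With the ab4729 pair added, the net count of fusion-activated genes was 1, of genes of other cell types 1 and of PRKCB 1. With each list left out, net counts ranged from -93 to 2 for fusion-activated, -10 to 88 for TGF-beta, -43 to 2 for neural, -15 to 45 for cell cycle, -8 to 24 for ribosomal, -12 to 36 for ETS, -21 to 60 for IGF, -10 to 50 for WNT, -4 to 29 for Notch and -7 to 4 for other cell type genes. Net counts of the matrix, adhesion, YAP/TEAD, AP-1 factor, fusion-repressed and Ewing marker lists never changed sign, though some came to 0. Over all merged regions, lost outnumbered gained when either siNEG list was left out, so a change of sign there is not particular to a gene list.

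Replicate numbers are shared between the arms, but fold deviations of same-numbered lists over 22724 shared regions had a correlation of 0.0109, so the numbers do not show a pairing. With the replicate block, the log2 ratio of region numbers stayed at 0.08 and the GGAA difference at -0.88 (exact sign-flip test, p = 0.5, the smallest possible). Library depth is unknown from these files, and 2 lists per arm cannot reach a p-value below 0.33.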

Other observations

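Counted in windows of 1 Mb, 20 gained and 1 lost region lay in the window that starts at chromosome 20 position 47000001. SULF2, a sulfatase of heparan sulfate in it, was assigned 9 gained and 0 lost regions. The window on chromosome 2 from position 217000001 held 19 gained and 1 lost region, but TNS1, the gene of tensin 1 in it, was itself assigned only 5 gained and 3 lost regions. The most net lost regions lay on chromosome 9 from position 20000001, with 15 lost and 2 gained, and on chromosome 8 from position 28000001, with 13 lost and 0 gained. In the former, FOCAD was assigned 7 lost and 1 gained and MLLT3, a subunit of the super elongation complex, 5 lost and 1 gained. In the latter, INTS9 and PNOC were assigned 3 lost regions each. The windows were ranked by these counts, so the counts are a description without a test.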
